A study of Mus musculus with 8 samples.

Results

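The genes described here are 9 transcription factors that pattern the forebrain: Lhx2, Dmrta2, Emx2, Otx1, Otx2, Six3, Nr2f1, Barhl2 and Lhx9. They were taken by gene symbol from a table of RNA-seq read counts, which held all 9 among 32499 genes. RNA came from mouse neural progenitor cells at embryonic day 14, obtained by dissociating neural tubes and sorting with NeuroFluor CDr3, a dye that labels these progenitors. There were 4 libraries labelled 53BP1 KO and 4 labelled control, all of strain C57BL/6. Trp53bp1 encodes 53BP1, which binds chromatin and is known above all from the repair of broken DNA. Control embryos were wild-type. KO embryos came from mating males that carried in-frame deletions made by CRISPR with females of the line Trp53bp1tm1Jc, so that embryos with a deletion and a targeted allele were collected; the labels do not give the exact alleles of each library, nor whether a library was 1 embryo or a pool, nor whether its cells had been cultured. They also do not say that replicates were separate embryos. The p-values thus set group differences against the spread among these libraries, and that spread may be technical.

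Forebrain identity is set early in the neural plate by transcription factors expressed in overlapping domains. OTX and SIX3 proteins mark the anterior neural plate and hold back signals that make posterior tissue. LHX2, DMRTA2 and EMX2 then specify the dorsal telencephalon, the source of the cerebral cortex and hippocampus, and NR2F1 sets areas within the cortex. BARHL2 and LHX9 are factors of the diencephalon and of some dorsal interneurons. The comparison asks how levels of these regional factors differ between progenitors of 53BP1 KO and wild-type embryos.

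Total counts ran from 15343046 to 18189045 reads in the controls and from 11081419 to 24339621 reads with the KO label. Levels are given as CPM, read counts normalised to the library size adjusted by TMM, and 3 counts corresponded to between 0.126 and 0.261 CPM. Genes with any count numbered 23621 to 27166 in the controls, 24381 and 24323 in KO-labelled 2 and 3, and fewer in KO-labelled 1 (19493) and 4 (22309), although those had the most reads. Trp53bp1 itself had 412 to 497 counts in the controls against 341 to 617 with the KO label. Its level was 26.8 ± 0.349 CPM in the controls and 27.1 ± 6.36 CPM with the KO label (SD, n = 4 each). It thus did not separate the groups, and it was more spread with the KO label. The effect of the deletions or of the targeted allele on this RNA was not tested. The groups are therefore called control and KO-labelled. Kdm6a, which encodes the H3K27 demethylase UTX, fell by 0.79 on the log2 scale (SE 0.12, adjusted p = 0.000217, from the edgeR fit of 15021 genes by quasi-likelihood). Xist, the RNA of the inactive X chromosome, had 23853 to 26134 counts in the controls against 9 to 16 with the KO label, and the Y-linked gene Ddx3y had 0 counts in all 4 controls and between 579 and 1064 in the KO-labelled libraries. Every control library was thus female in expression and every KO-labelled library male. Genotype and sex cannot be told apart in the fall of Kdm6a above or in any value below.

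Of the 9 factors, 5 fell (Lhx2, Dmrta2, Barhl2, Otx1 and Six3), 2 rose (Nr2f1 and Otx2) and 2 did not pass the test (Emx2 and Lhx9) at an adjusted p below 0.05. All 9 passed the filter on low counts. Over all 15021 genes tested, 13.9% were called lower, 16.1% higher and 30.0% in either direction. Lhx2, Dmrta2 and Barhl2 fell by more than 2-fold, as did 2.70% of all genes tested. The median log2 fold change of the 9 was -0.54, against 0.001 for all genes tested. These factors were chosen with earlier results of these libraries known, so their share of calls is a description. In a bulk sample, fewer cells that express a gene and less of its RNA per cell cannot be told apart.

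**Figure D1:**
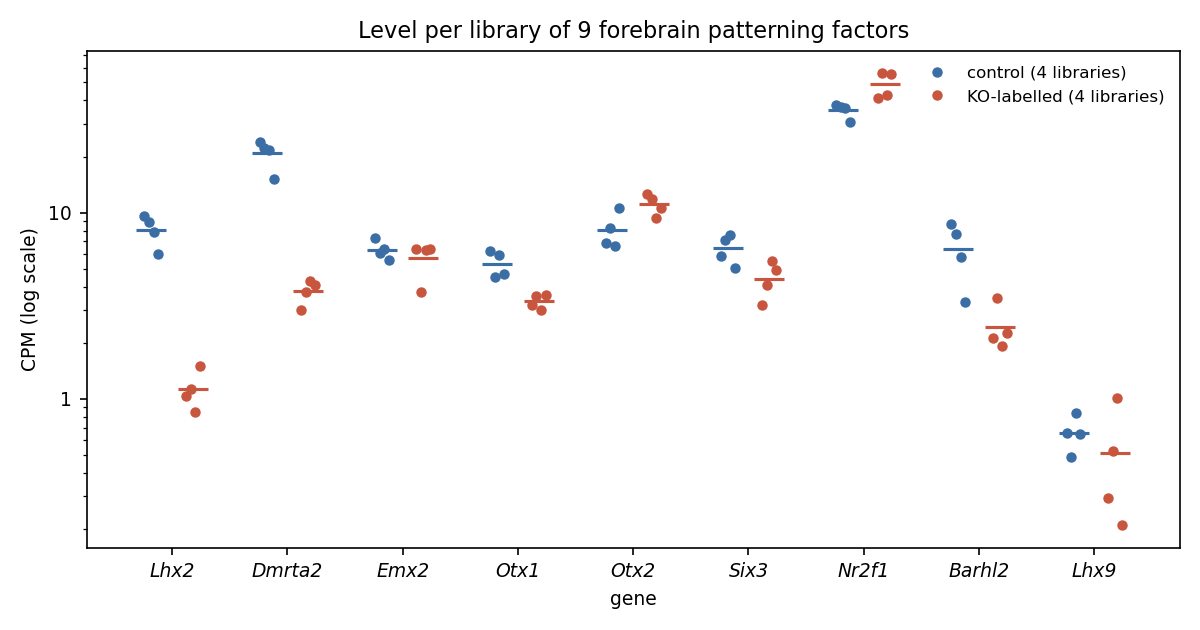
Level of each of the 9 factors in CPM on a log scale, with 1 point per library and a line at the mean of each group. Lhx2 and Dmrta2 are separated widely, Otx1 and Nr2f1 narrowly, and the groups of the other 5 overlap.

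Lhx2, on chromosome 2, encodes a LIM-homeodomain protein that cortical progenitors need to keep cortical identity. Its level was 9.54, 8.90, 7.87 and 6.01 CPM in controls 1 to 4 and 1.03, 1.13, 0.846 and 1.51 CPM in KO-labelled libraries 1 to 4. The lowest control was well above the highest KO-labelled library. Lhx2 fell from 8.08 ± 1.54 to 1.13 ± 0.279 CPM (SD, n = 4 each), a control level 7.03-fold that of the KO-labelled libraries (log2 fold change -2.81 with an SE of 0.22, 95% interval -3.29 to -2.34, edgeR adjusted p = 4.22e-07). The KO-labelled values rest on few reads, 13 to 36 per library and 85 in all, against 553 in the controls.

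Dmrta2, on chromosome 4, encodes a DMRT zinc finger protein that acts in dorsal telencephalic progenitors and in the cortical hem. It had 24.1, 22.3, 21.8 and 15.1 CPM in controls 1 to 4 and 3.00, 3.75, 4.28 and 4.07 CPM in KO-labelled libraries 1 to 4. Again the groups were far apart, and control 4 was the lowest control. Dmrta2 fell from 20.8 ± 3.92 to 3.77 ± 0.561 CPM (log2 fold change -2.46 with an SE of 0.17, 95% interval -2.82 to -2.10, edgeR adjusted p = 1.08e-07), on 1422 counts in the controls against 277 in the KO-labelled libraries.

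Barhl2, on chromosome 5, encodes a BarH-like homeodomain protein of the diencephalon. Its controls were spread out, at 8.66, 7.71, 5.80 and 3.30 CPM in controls 1 to 4, and the KO-labelled libraries held 2.12, 3.48, 1.92 and 2.26 CPM. Control 4 lay below KO-labelled 2, so the groups overlapped by 1 library. Barhl2 fell from 6.37 ± 2.37 to 2.45 ± 0.707 CPM (log2 fold change -1.42 with an SE of 0.28, 95% interval -2.02 to -0.83, edgeR adjusted p = 0.00149).

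To show the upstream sequence of the 3 factors with the largest falls, beside that of Otx2, one of those that rose, the 250 bases before a RefSeq transcript start are printed 5′ to 3′ on the gene's strand, from RefSeq's GRCm38.p6. The windows are chr2:38339031-38339280 (plus strand) for Lhx2, chr4:109977775-109978024 (plus strand) for Dmrta2, chr5:106458167-106458416 (minus strand) for Barhl2 and chr14:48667645-48667894 (minus strand), the farthest upstream of 4 starts, for Otx2. Capitals mark GGGCGG (the GC box), CCAAT and TAATTA (a homeodomain core) on either strand, which do not overlap here.
Lhx2: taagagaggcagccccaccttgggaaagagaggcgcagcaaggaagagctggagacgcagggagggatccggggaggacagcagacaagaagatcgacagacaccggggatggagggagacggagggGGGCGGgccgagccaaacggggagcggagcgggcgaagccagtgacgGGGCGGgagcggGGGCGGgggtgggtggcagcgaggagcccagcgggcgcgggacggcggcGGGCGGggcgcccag
Dmrta2: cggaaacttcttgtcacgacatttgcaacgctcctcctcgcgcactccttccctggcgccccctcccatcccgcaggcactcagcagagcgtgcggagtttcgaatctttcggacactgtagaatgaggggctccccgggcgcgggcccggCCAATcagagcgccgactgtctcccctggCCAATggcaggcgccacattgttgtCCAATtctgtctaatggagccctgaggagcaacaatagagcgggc
Barhl2: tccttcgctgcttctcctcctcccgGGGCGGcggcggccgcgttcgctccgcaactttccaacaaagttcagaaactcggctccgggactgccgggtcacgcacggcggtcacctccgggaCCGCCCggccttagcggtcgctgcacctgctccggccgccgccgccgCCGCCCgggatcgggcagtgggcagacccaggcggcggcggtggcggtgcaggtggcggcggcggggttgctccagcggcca
Otx2: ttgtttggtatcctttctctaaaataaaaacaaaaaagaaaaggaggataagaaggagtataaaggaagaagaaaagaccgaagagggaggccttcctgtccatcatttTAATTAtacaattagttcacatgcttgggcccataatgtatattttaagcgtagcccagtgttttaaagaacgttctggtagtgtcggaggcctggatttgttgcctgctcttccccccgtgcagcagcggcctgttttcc
The printed windows held 25 CG dinucleotides in Lhx2, 19 in Dmrta2, 36 in Barhl2 and 6 in Otx2, and the median over 32851 windows of the same length was 6. At the farthest upstream starts, CG content did not follow the direction of change over all members. The farthest upstream window of Nr2f1, which rose, held 22, that of Emx2, which was not called, 24, and that of Six3, which fell, 10. Another start of Nr2f1 held only 2, so the comparison depends on the start chosen. The other 3 starts of Otx2 had 8, 14 and 9, and that of Lhx9 had 4. GGGCGG occurred 4 times in the printed Lhx2 window and 3 times in that of Barhl2, and it is present in 32.7% of all windows. The window of another Lhx2 start, farther downstream, held 24 CG dinucleotides and lacked this motif, so its presence also depends on the start chosen. CCAAT occurred 3 times before Dmrta2 and is present in 33.8% of all windows. The printed Otx2 window had 1 TAATTA, a motif that 4.84% of windows hold. The OTX motif TAATCC, present in 6.25% of windows, was in none of the 4 printed windows. Among the other starts of Otx2, the window with 14 CG dinucleotides held 3 TAATTA and 1 TAATCC. RefSeq windows were matched for 8 of the 9 factors. These matches are descriptions of the letters only.

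Emx2, on chromosome 19, encodes a homeodomain protein that is graded across the cortex and needed for the hippocampus. Unlike Lhx2 and Dmrta2, it was not called. It had 7.29, 6.08, 6.38 and 5.56 CPM in controls 1 to 4 and 6.35, 3.75, 6.31 and 6.41 CPM in KO-labelled libraries 1 to 4. All KO-labelled libraries but the second lay within the range of the controls. The log2 fold change was -0.13 with a 95% interval of -0.51 to 0.25 (edgeR adjusted p = 0.622), and without KO-labelled 2 it was 0.001.

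The OTX paralogs had calls of opposite sign. Otx1, on chromosome 11, is known from corticogenesis and sense organs. It had 6.19, 4.50, 5.93 and 4.66 CPM in controls 1 to 4 and 3.20, 3.57, 2.99 and 3.61 CPM in KO-labelled libraries 1 to 4, with no overlap. It fell by 0.67 on the log2 scale (SE 0.17 and 95% interval -1.04 to -0.30, edgeR adjusted p = 0.00934). Otx2, on chromosome 14, is required for the head and later for midbrain, choroid plexus and retina. It had 6.91, 8.30, 6.58 and 10.5 CPM in controls 1 to 4 and 12.5, 11.8, 9.36 and 10.6 CPM in KO-labelled libraries 1 to 4. Control 4 lay above KO-labelled 3, and the other 3 controls lay below every KO-labelled library. The rise of Otx2 was small (log2 fold change 0.45 with an SE of 0.16, 95% interval 0.11 to 0.80, edgeR adjusted p = 0.0459). Its call was lost without any library but control 4 and KO-labelled 3, with an adjusted p between 0.0813 and 0.137 in those 6 fits.

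Markers of choroid plexus and eye, other tissues that express OTX2, were summed in each library. The choroid plexus gene Ttr had 0 counts in all 8 libraries, and the 6 choroid plexus markers had a summed level of 1.32 to 3.20 CPM in the controls against 0.935 to 2.96 CPM with the KO label. The summed level of 6 eye markers was higher in the KO-labelled libraries, at 21.8 to 26.3 CPM against 13.2 to 14.5 CPM. Mitf, which is not restricted to the eye, made up most of it and rose by 1.01 on the log2 scale (SE 0.13, edgeR adjusted p = 3.96e-05). Of the 4 eye markers tested, Rlbp1 rose too (0.65, adjusted p = 0.0365), and the pigment genes Tyr (-1.40, adjusted p = 0.0731) and Pmel (-0.65, adjusted p = 0.247) had negative values that were not called.

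Six3, on chromosome 17, encodes a homeodomain repressor of the anterior forebrain and eye. It had 5.87, 7.16, 7.61 and 5.04 CPM in controls 1 to 4 and 3.20, 4.09, 5.47 and 4.91 CPM in KO-labelled libraries 1 to 4. KO-labelled 3 lay above control 4, so the groups overlapped. The log2 fold change of -0.54 (SE 0.19, 95% interval -0.95 to -0.12) was just past the threshold, with an adjusted p of 0.0495 by edgeR. That call was lost with DESeq2 (adjusted p = 0.0625), without a filter on low counts (0.0747), with libraries thinned to equal depth (0.214) and without any one of controls 1, 2 and 3 or KO-labelled 1, 2 and 4 (0.0574 to 0.164).

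Nr2f1, on chromosome 13, encodes the orphan nuclear receptor COUP-TFI, which patterns cortical areas and is also active outside the forebrain. It was the factor with the most counts, 2414 in the controls against 3566 in the KO-labelled libraries. Controls 1 to 4 held 38.0, 36.9, 36.5 and 30.8 CPM and KO-labelled libraries 1 to 4 held 41.1, 55.9, 42.7 and 55.8 CPM. The groups did not overlap, and KO-labelled 2 and 4 stood above 1 and 3. Nr2f1 rose from 35.5 ± 3.23 to 48.9 ± 8.09 CPM (log2 fold change 0.46 with an SE of 0.12, 95% interval 0.20 to 0.72, edgeR adjusted p = 0.0113), and the adjusted p was 0.0557 without KO-labelled 4.

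Lhx9, on chromosome 1, is the closest relative of Lhx2 in the LIM-homeodomain family and acts in thalamus and gonad. Counts were too low to follow it. There were 12, 9, 13 and 10 counts in controls 1 to 4 and 6, 6, 18 and 5 counts in KO-labelled libraries 1 to 4. Its interval ran from -1.49 to 0.69 on the log2 scale (edgeR adjusted p = 0.598), so that a fall or a rise of moderate size was not detectable at this depth.

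**Figure D2:**
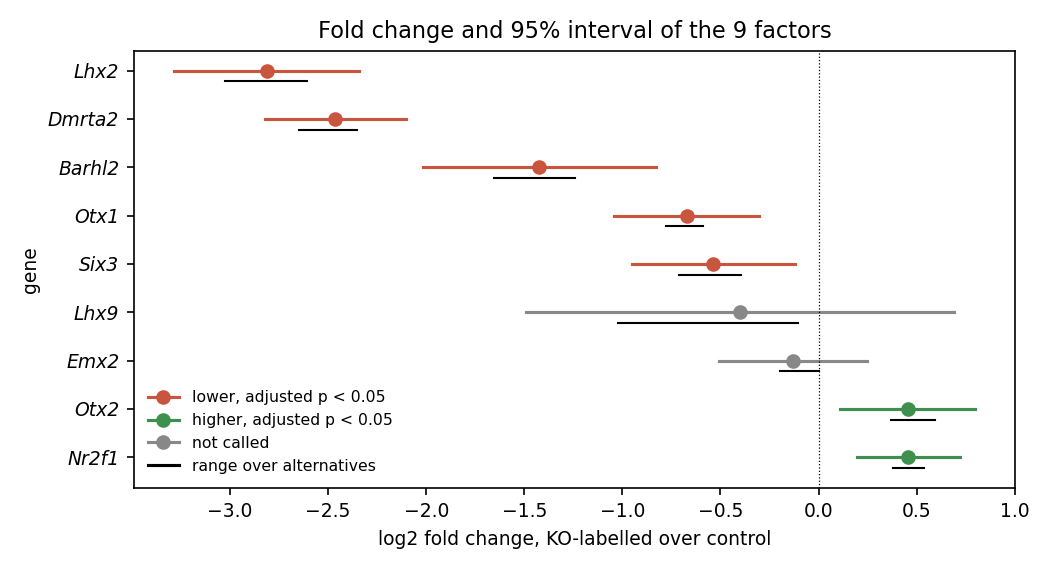
Log2 fold change of each factor, KO-labelled over control, as a point with its 95% interval, and below it in black the range over the alternative settings in which the gene was tested. The intervals of Lhx2 and Dmrta2 lie below -2, those of Otx2 and Nr2f1 lie above 0, and those of Emx2 and Lhx9 span 0.

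For 4 of the 9 the groups were fully apart, which held for 29.9% of all genes tested. Lhx2, Dmrta2 and Otx1 were lower in every KO-labelled library than in every control, which held for 13.9% of all genes tested. Nr2f1 was higher in every KO-labelled library, which held for 15.9% of all genes tested. Control 4 was the lowest control for Lhx2, Dmrta2, Barhl2, Emx2, Six3 and Nr2f1 and the highest control for Otx2. It also had the lowest summed astrocyte markers of any library, at 208.1 CPM against 343.8 to 353.7 CPM in the other controls, and the highest summed mesenchymal markers, at 109.2 CPM. Without control 4, Lhx2 had a log2 fold change of -2.94, Dmrta2 of -2.60 and Barhl2 of -1.65, with adjusted p-values of 9.42e-09, 2.72e-10 and 1.28e-05 by edgeR.

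Levels were set against each other per length, as CPM per kb of the gene's exons in GENCODE M21, an annotation of a later assembly than that of the counts. In the controls Dmrta2 (mean 7.13, libraries 5.18 to 8.24 CPM per kb) and Nr2f1 (6.98, 6.04 to 7.46) led and did not differ beyond their spread. Next came Barhl2 at 2.75 CPM per kb, Emx2 at 2.11, Otx2 at 1.92 and Lhx2 at 1.84, whose library ranges overlapped, then Six3 at 1.18 and Otx1 at 0.982 CPM per kb, which overlapped each other; the highest Six3 value (1.40) was above the lowest of Lhx2 (1.37). Lhx9 was last at 0.0693 CPM per kb. The order differed in the KO-labelled libraries. Nr2f1 was alone at the top at 9.60 CPM per kb (8.08 to 10.98), followed by Otx2 at 2.63 (2.22 to 2.97) and Emx2 at 1.90 (1.25 to 2.14). Dmrta2 was the fourth at 1.29 CPM per kb, with a range that overlapped those of Emx2 and Barhl2. Lhx2 was the eighth at 0.257 CPM per kb (0.193 to 0.344), below every library's value of Otx1 (0.551 to 0.665) and above every value of Lhx9 (0.0221 to 0.107).

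Ratios of counts within a library do not depend on how libraries are scaled. The pairs were chosen after the values had been seen and are given without a test. Counts of Lhx2 were 0.571 to 1.38 times those of Otx2 in the controls against 0.0824 to 0.143 times in the KO-labelled libraries. Lhx2 over Emx2 was 1.08 to 1.46 in the controls against 0.134 to 0.302 in the KO-labelled libraries. Dmrta2 over Nr2f1 was 0.492 to 0.633 and 0.067 to 0.1, respectively. In these 3 pairs, as in Barhl2 over Otx2 (0.313 to 1.25 against 0.169 to 0.294) and Otx1 over Otx2 (0.442 to 0.902 against 0.255 to 0.341), the groups did not overlap.

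**Figure D3:**
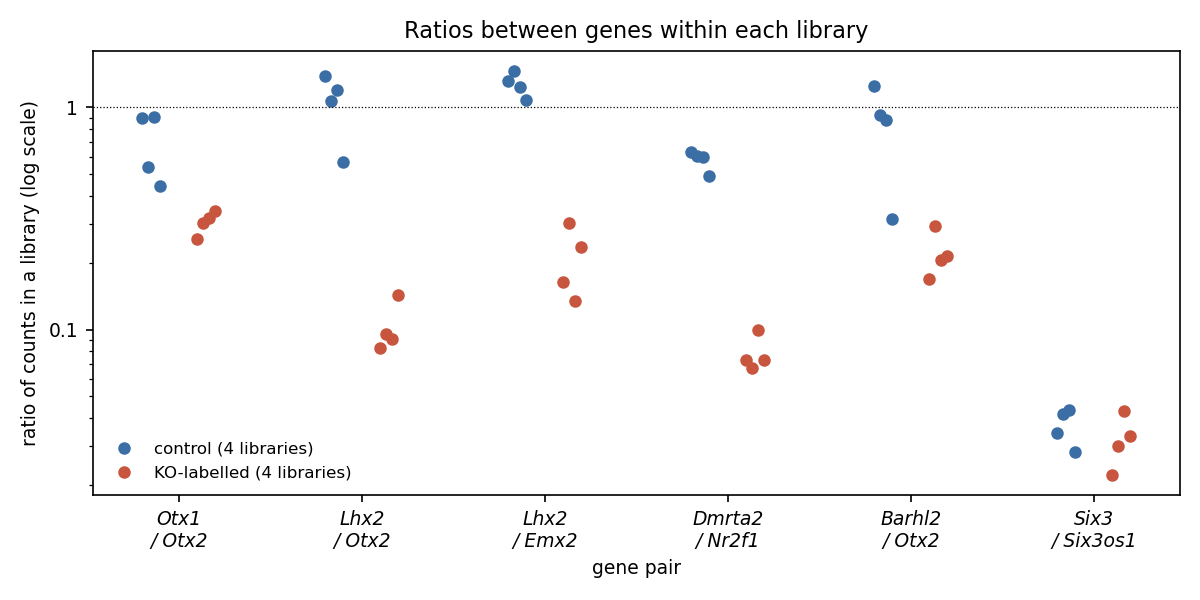
Ratio of the counts of 2 genes within each library on a log scale, with 1 point per library. The groups are apart in the 5 pairs of forebrain factors, and the ratio of Six3 to its antisense RNA Six3os1 (0.0281 to 0.0433 in the controls, 0.0221 to 0.043 in the KO-labelled libraries) overlaps.

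Long noncoding RNAs lie beside several of these genes, and 2 of them had a row of counts under their symbol. Six3os1, which overlaps Six3 on the opposite strand, had far more counts than Six3, with 3136, 3161, 2723 and 2775 in controls 1 to 4 and 2946, 1567, 2258 and 3542 in KO-labelled libraries 1 to 4. In CPM all KO-labelled libraries (127.3 to 148.5 CPM) lay below all controls (171.6 to 179.4 CPM), and the RNA fell by 0.33 on the log2 scale (SE 0.08, edgeR adjusted p = 0.00735), a call lost without a filter on low counts (adjusted p = 0.102). Otx2os1, opposite Otx2, had 12, 25, 11 and 29 counts in controls 1 to 4 and 53, 22, 48 and 60 in KO-labelled libraries 1 to 4. It rose by 1.10 (SE 0.33, edgeR adjusted p = 0.0208); the call was lost without control 1 or 3 or without KO-labelled 1, 3 or 4 (0.0501 to 0.0603). Each RNA thus had a change of the same sign as the factor beside it. The exons of Six3os1 share 106 bases with Six3 and those of Otx2os1 share 154 bases with Otx2 in GENCODE M21, and since the strand setting of the counting is not given, reads from these stretches cannot be assigned to a strand. Emx2os, Dmrta2os and A830082K12Rik, beside Emx2, Dmrta2 and Nr2f1, were not analysed here.

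Reads shared with other genes were examined through stretches of 50 bases in GENCODE M21 transcripts. Lhx2 had 0 of 4381 and Dmrta2 0 of 2873 such stretches in common with any other gene, on either strand, so Lhx2 and Lhx9 shared none. For the other 7 the share was between 0.137% (Lhx9) and 7.18% (Emx2, with Emx2os).

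Protein-coding genes next to the factors did not all move with them. Beside Lhx2, Dennd1a had a log2 fold change of -0.24 (95% interval -0.60 to 0.12, edgeR adjusted p = 0.319) and Nek6 fell by 0.42 (adjusted p = 0.0182). Of the genes flanking Dmrta2, Faf1 rose by 0.42 (adjusted p = 0.00716) and Elavl4 fell by 0.52 (adjusted p = 0.0162). Fam172a beside Nr2f1 rose by 0.46 (adjusted p = 0.00219), and Tmem260 beside Otx2 rose by 0.69 (adjusted p = 0.000239), each at least as much as the factor. The calls of Nek6 and Elavl4 were lost in 3 and 2 of 17 alternative fits, respectively.

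Other regional factors of the telencephalon, diencephalon and eye field formed a list of 30 genes, of which 14 had enough counts to be tested. Of these 6 fell and 2 rose (57.1% called, against 30.0% of all genes), with a median log2 fold change of -0.20; without KO-labelled 1 or KO-labelled 4 the number that fell was 4. These are the libraries with the fewest genes detected, and the part of this in the calls of genes near 1 CPM was not tested. Some that fell, among them Nkx2-1 and Gsx1, passed the filter on low counts through the controls, the group where they were higher. Without that filter 7 genes of the list fell and 4 rose. The share called is therefore a description.

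Among those that fell, Nkx2-1 and Gsx1, which specify ventral telencephalic domains, fell by 1.70 (adjusted p = 0.0201) and 1.21 (edgeR adjusted p = 0.0238) from 1.38 ± 0.391 and 1.43 ± 0.237 CPM (SD, n = 4). Both calls were lost without control 1 and without either of KO-labelled 1 and 4, and that of Gsx1 also without control 3. Nr2e1 (-0.65) and Gli3 (-0.44), named after their values were seen, also fell and are expressed well beyond the telencephalon. The 2 that rose, also named after their values were seen, were Nr2f2 and Pax6. Nr2f2, the paralog of Nr2f1, rose from 12.9 to 22.3 CPM (log2 fold change 0.79 with an SE of 0.13, edgeR adjusted p = 0.000377), and Pax6, which is expressed along the whole neural tube, from 22.7 to 32.3 CPM (0.50, SE 0.13, adjusted p = 0.00898). Emx1, the cortical relative of Emx2, had 3 counts in the controls against 2 in the KO-labelled libraries and could not be tested.

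**Figure D4:**
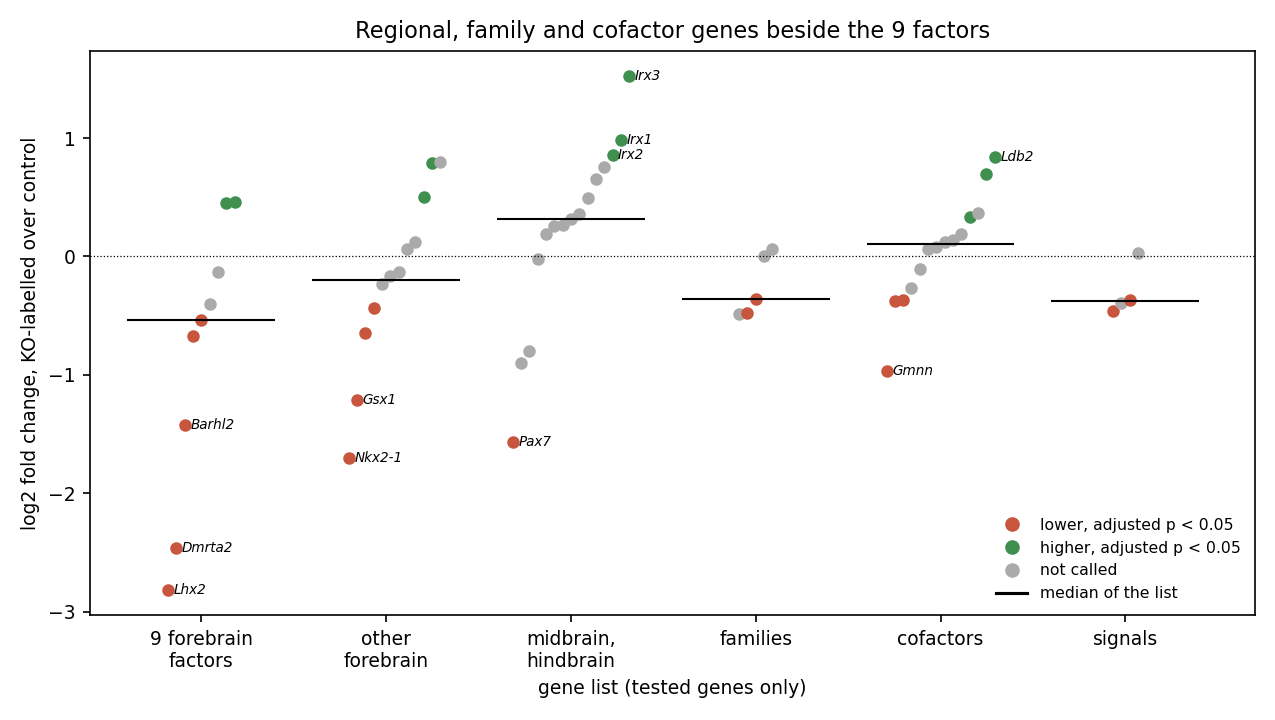
Log2 fold change of the tested genes of each list, KO-labelled over control, with 1 point per gene and a line at the list's median over all its tested genes, of which 2 in the other forebrain list are not drawn; named are genes called with a change above 0.8 in size. Lhx2 and Dmrta2 lie below -2, and Irx3 lies highest at 1.52.

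Of 20 midbrain and hindbrain factors 15 were tested, of which 3 rose and 1 fell (26.7% called, no more than the 30.0% of all genes), with a median of 0.31. The 3 were Iroquois homeobox genes, which are active caudal to the anterior forebrain. Irx3 had 1.97, 1.74, 1.48 and 1.81 CPM in controls 1 to 4 and 4.53, 3.66, 5.36 and 6.41 CPM in KO-labelled libraries 1 to 4 (log2 fold change 1.52 with an SE of 0.21, edgeR adjusted p = 0.000112). Irx1 rose by 0.99 (SE 0.17) and Irx2 by 0.85 (SE 0.12), and the groups did not overlap for any of the 3. Pax7, of the dorsal midbrain and spinal cord, was the 1 that fell (-1.57, SE 0.48, adjusted p = 0.0229), on 57 counts in the controls against 20 in the KO-labelled libraries. Its call was lost when control 2 or 4, or KO-labelled 1 or 4, was left out (adjusted p = 0.0516 to 0.0823) and without a filter on low counts (0.105). Of the whole list, 0 genes fell when control 2 or KO-labelled 1 or 4 was left out, with a minimum of 1 CPM in 4 libraries and after thinning, and 2 without KO-labelled 2. The boundary gene En2 had a log2 fold change of 0.26 (adjusted p = 0.125) and En1 of -0.80 (adjusted p = 0.158), and neither was called. Hox genes, which mark hindbrain and spinal cord, had a level summed over 39 genes of 46.2 to 53.3 CPM in the controls against 50.04 to 59.0 CPM with the KO label, with overlap.

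Among 16 further genes of the same families, 5 were tested, of which 2 fell and none rose (40% called, against 30.0% of all genes; median -0.36). They were Nr2f6 (-0.48, SE 0.12, adjusted p = 0.00859) and Six4 (-0.36, SE 0.11, edgeR adjusted p = 0.0230). The count was 1 without control 2 or 3 or without KO-labelled 1, 3 or 4. Of 15 cofactors 14 were tested, 3 rose and 3 fell (42.9% called, against 30.0% of all genes), and the median was 0.10. Ldb2, whose protein bridges LIM-homeodomain factors, rose from 3.32 to 5.92 CPM (0.84, SE 0.17, adjusted p = 0.00198), and Ssbp2, which binds LDB proteins, from 13.2 to 21.5 CPM (0.70, SE 0.14, adjusted p = 0.00180). Lmo4, named as the last of the 3, rose by 0.34 and lost its call without control 2 or control 3. Gmnn, which encodes geminin, a replication inhibitor and partner of SIX3, fell by 0.97 (SE 0.22, adjusted p = 0.00401), and Lmo3 and Tle4 fell by 0.37 each. All 7 proliferation genes described below fell as well, and their part in the fall of Gmnn was not tested. Without KO-labelled 1 the number of cofactors that fell was 1, and it was 2 without KO-labelled 2, 3 or 4; the rises became 2 without control 2 or control 3.

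Patterning signals were mostly too low to test. Of 14 ligands and antagonists 4 were tested and 2 fell (50% called, against 30.0% of all genes), Wnt5a (-0.36, SE 0.10, adjusted p = 0.0159) and the Wnt antagonist Sfrp1 (-0.46, SE 0.16, edgeR adjusted p = 0.0443). The number was 0 without KO-labelled 1 and 1 without control 2 or 4 or without KO-labelled 2, 3 or 4. For Sfrp1 the groups overlapped, with 40.1 CPM in control 4 against 22.2 to 26.4 CPM in the other controls. Without control 4 its log2 fold change was -0.255 (edgeR adjusted p = 0.0896). Its call was lost in 8 of 17 alternatives, and that of Wnt5a in 2. Bmp7 had a log2 fold change of 0.03. Fgf8, the ligand of the rostral forebrain centre, had 18 counts in the controls against 14 in the KO-labelled libraries, and Wnt8b, a cortical hem ligand, had 10 and 9.

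Some other classes of marker also differed between the groups. Beside the counts of calls below, 16.1% of all genes tested were called higher and 13.9% lower. Counts from such short lists are descriptions. The 8 progenitor markers were abundant in every library, with a summed level of 9456 to 11590 CPM in the controls against 8963 to 12320 CPM with the KO label, most of it Fabp7. Single members differed in direction: 4 rose (Msi1 by 0.87, Sox2 by 0.78, Hes5 by 0.47 and Slc1a3 by 0.31 on the log2 scale) and 2 fell (Nes, -0.90, and Vim, -0.39). Astrocyte markers, 5 of 6 of which rose, had a summed level of 208.1 to 353.7 CPM in the controls against 942.1 to 1088 CPM with the KO label. All 7 proliferation genes fell, with a sum of 4639 to 5688 CPM against 2459 to 3127 CPM. Mesenchymal markers, of which 4 of the 5 tested fell, summed to between 66.0 and 109.2 CPM and between 35.7 and 45.6 CPM, and endothelial markers, of which 2 of 3 fell, to between 8.77 and 14.9 CPM and between 2.98 and 7.06 CPM. Neuronal markers, whose sum was mostly Map2 and overlapped between the groups (398.8 to 522.6 against 368.1 to 445.2 CPM), also moved in both directions, with 2 of 8 higher (Dcx, 0.91, and Tubb3, 0.68) and 2 lower (Snap25, -1.16, and Syt1, -0.83). The sums of Cajal-Retzius markers (18.5 to 27.6 against 24.6 to 27.7 CPM), microglial markers (1.75 to 3.43 against 1.01 to 2.44 CPM) and erythroid markers (0.822 to 1.95 against 1.08 to 2.14 CPM) overlapped; the 1 microglial marker tested fell. The part of any of these in the levels of the 9 factors was not tested.

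The genes whose pattern over the 8 libraries was most like that of each called factor were found by Pearson's r of log2 CPM, among up to 9934 genes with a mean of at least 5 CPM. For Lhx2 they were Pdp2 (r = 0.995), Pank2 (0.992) and Aen (0.988), and for Dmrta2 they were Frmd6 (0.995), Lsm11 (0.991) and Polh (0.986). The first was Timm44 for Barhl2 (0.981), Rnf44 for Otx1 (0.983), Pdcl for Six3 (0.957), Mtmr9 for Otx2 (0.965) and Smarcd3 for Nr2f1 (0.970). All points share the step between the groups and the library scaling, and with 8 libraries such values are descriptions only.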

How the data were processed

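The authors deposited whole-number read counts per gene. The submitters' processing notes list HTSeq 0.6.1p1, CASAVA and the builds NCBIM37 and mm9. How reads were aligned, and with which strand setting they were counted, is not given in the sources used here. Per the labels' protocols, libraries came from a stranded total RNA kit and were sequenced as paired ends on either of the HiSeq models named there; which model served which library is not given, so a run effect cannot be told apart from group. Of 32499 genes, 1991 had a count of 0 throughout.

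After filterByExpr and TMM scaling, KO-labelled libraries were compared with controls over all 8 libraries in edgeR 4.0.16 (R 4.3.3) by its quasi-likelihood test, with Benjamini-Hochberg adjustment over 15021 genes and a threshold of 0.05. The SE is the log2 fold change divided by the square root of F. Values of log2 CPM used a pseudocount of 0.5. No pair of libraries of a group agreed within sampling noise (chi-square per degree of freedom 4.45 to 36.2), so all were kept. Controls 2 and 3 were the closest pair at 4.45, and the other pairs lay between 13.8 and 36.2. Whether controls 2 and 3 came from separate embryos is not given. Alternatives were DESeq2 1.42.0, voom of limma 3.58.1 with quality weights, RLE and upper-quartile scaling, other filters, robust dispersion, thinning, a replicate block and leaving out each library. On simulated data the fit recovered 78.9% of the changes of 2-fold and 38% of the smaller changes put in, and 5.04% of its calls were false. A gene that was not called may therefore still differ. Neighbours came from RefSeq order and overlaps and lengths from GENCODE M21, both on GRCm38, matched by symbol.

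The members and lists were chosen with earlier results of these data known. Named are all members, up to 4 called genes per list with the largest change and the RNAs beside members. Protein-coding neighbours are named for Lhx2, Dmrta2, Nr2f1 and Otx2 only. The 3 most alike genes are named for Lhx2 and Dmrta2, and the first for each other called member. Nr2e1, Gli3, Pax6, Nr2f2, Lmo4, Tle4, Emx1, En1, En2, Bmp7, Fgf8, Wnt8b and single marker genes were named after their values were seen. Some genes that this rule takes are not reported here.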

Additional observations from a re-analysis of the deposited data

Results flagged for a closer look

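In groups of 4 libraries, a library was singled out where its gap to the nearest other as a share of the group's range exceeded Dixon's 95% critical value. This was examined for 35 named genes in both groups, 70 groups in all, and 4 were singled out, where chance alone gives about 1 in 20. Emx2 was 3.75 CPM in KO-labelled 2, against 6.31 to 6.41 CPM in the other KO-labelled libraries; this library had the fewest counts, and 43 reads of Emx2. Irx2 was 13.3 CPM in control 3, against 10.6 to 11.1 CPM in the other controls. Lmo3 was 69.6 CPM in control 4, against 45.7 to 48.3 CPM, and its call was lost without that library (log2 fold change -0.22, adjusted p = 0.0902 by edgeR). Lmo4 was 24.5 CPM in control 1, against 21.4 to 21.8 CPM.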

How the results depend on the processing

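Across 17 alternatives, Lhx2 (log2 fold change -3.02 to -2.61), Dmrta2 (-2.65 to -2.35), Barhl2 (-1.65 to -1.24) and Otx1 (-0.78 to -0.59) kept their direction and their call. Otx2 lost its call in 10 and Six3 in 9, and Nr2f1 in 1 (without KO-labelled 4). The number of the 9 factors that rose was 1 with RLE scaling, 1 with upper-quartile scaling, 1 with a minimum of 1 CPM in 4 libraries and 1 after thinning to the smallest library, and between 0 and 2 when a library was left out; 4 or 5 fell in every alternative. Emx2 ran from -0.195 to 0.001 when a library was left out and reversed, to 0.001, only without KO-labelled 2. Over the 5 lists together 14 genes fell and 8 rose; leaving out a library gave between 6 and 14 that fell, with 6 without KO-labelled 1 and 8 without KO-labelled 4. Without a filter on low counts 11 of the list genes fell and 12 rose, which turns their balance (cofactors that fell went from 3 to 1 and other forebrain factors that rose from 2 to 4), and the median log2 fold change of all genes was -0.13. Same-numbered libraries had correlations of their deviations of -0.18 to 0.23. Controls 1, 2 and 4 correlated best with the KO-labelled library of their own number, and control 3 with KO-labelled 2. Whether the numbers mark pairs is therefore not settled. With the replicate block, 5 of the factors fell and 2 rose. Over all genes 1940 fell and 2237 rose with the block, against 2087 and 2412 without it. The causes were not tested. Lhx9, at 5 to 18 counts per library, and most signals were limited by depth.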
